A study of Mus musculus with 48 samples.

Results

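The transcripts of 10 genes of the NF-kB system were measured across the day in the epidermis of adult and aged mice. The genes were chosen by symbol, and are 10 of the 24996 gene identifiers in the count matrix. They are the DNA-binding subunits Nfkb1, Nfkb2, Rela and Relb, the IkB family members Nfkbia, Nfkbie, Nfkbiz and Bcl3, and the feedback enzymes Tnfaip3 and Zc3h12a. Each was matched by its Entrez identifier to 1 row, and all 10 passed the filter on low counts, with at least 74 counts in every adult library and 94 in every aged library.

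Total RNA was sequenced from cell suspensions of mouse epidermis, the outer layer of the skin. Ages ran from 18 to 25 weeks in adult and from 80 to 90 weeks in aged mice, and both were sampled at 6 Zeitgeber times (ZT, in hours), ZT0, ZT4, ZT8, ZT12, ZT16 and ZT20. With 4 libraries at each time and age there were 12 groups, 24 libraries per age and 48 in all. No treatment, genotype, strain or sex is given in the sources used here, so a difference between ages may hold a difference of any of these. The labels do not say that replicates came from separate animals, and p-values then measure the spread between these libraries.

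Total counts per library ran from 40761084 to 49229498. Keratinocyte markers were present, at unlike levels. The 7 genes of basal keratinocytes (such as Krt5 and Krt14) summed to 7905 to 17225 CPM (counts per 1e6 of the scaled library). Of 8 markers of differentiated keratinocytes, Krt1, Krt10, Krtdap, Sbsn and Dsg1a had medians from 886 to 3775 CPM over the 48 libraries. The median was 75.5 CPM for Ivl, 7.63 for Lor and 1.72 for Flg. Lor ran from 2.94 to 67.1 CPM and Flg from 0.331 to 8.60 CPM. Other cells were present too. The 12 Langerhans cell markers, the dendritic cells of the epidermis, summed to 126 to 582 CPM, and Cd207, which encodes the langerin of these cells, stood between 0.880 and 34.2 CPM. Epcam alone stood between 73.4 and 140.5 CPM, so much of the lowest sum is Epcam. The 9 T cell markers summed to 32.1 to 131 CPM, whereas 5 endothelial markers summed to at most 4.27 CPM. Fibroblast markers differed between libraries. Dcn ran from 0.111 to 26.0 CPM, Col3a1 from 0.0443 to 20.6 and Col1a2 from 1.11 to 16.7, while Lum reached at most 1.33 and Pdgfra 2.52 CPM. In such bulk libraries, fewer cells of a type and less RNA per cell cannot be told apart.

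In the resting state, dimers of NF-kB subunits are held in the cytoplasm by inhibitors of the IkB family. Cytokines, microbial products and injury activate the IkB kinases, the inhibitor is degraded, and the dimer enters the nucleus and switches on its targets. Among these targets are the system's own brakes. Nfkbia encodes IkB-alpha, which returns dimers to the cytoplasm, Tnfaip3 a ubiquitin-editing enzyme that shuts down the kinases, and Zc3h12a an RNase (Regnase-1) that degrades inflammatory messenger RNAs. Nfkb1 and Nfkb2 encode precursors that are processed into DNA-binding subunits, and Rela and Relb carry the activation domains of the canonical and the alternative pathway. Nfkbie encodes IkB-epsilon, whereas Nfkbiz and Bcl3 encode nuclear IkB proteins that modify what the dimers do at their targets. In skin the pathway is known for its part in barrier inflammation and psoriasis.

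Because these genes are known NF-kB targets, the 250 bases before their annotated start are shown for 4 of them, with matches to the NF-kB binding motif (kB motif) in capitals. The sequences are from RefSeq, on GRCm38.p6, printed 5′ to 3′ on the gene's strand. They lie at chr12:55492648-55492897 for Nfkbia, chr10:19015411-19015660 for Tnfaip3 and chr4:125127882-125128131 for Zc3h12a, all on the minus strand, and at chr19:46304487-46304736 on the plus strand for Nfkb2.
Nfkbia: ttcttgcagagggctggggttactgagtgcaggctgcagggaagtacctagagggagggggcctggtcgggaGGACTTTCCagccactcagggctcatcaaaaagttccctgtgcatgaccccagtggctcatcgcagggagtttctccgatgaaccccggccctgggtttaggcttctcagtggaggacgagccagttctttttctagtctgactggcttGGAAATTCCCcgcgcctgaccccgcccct
Tnfaip3: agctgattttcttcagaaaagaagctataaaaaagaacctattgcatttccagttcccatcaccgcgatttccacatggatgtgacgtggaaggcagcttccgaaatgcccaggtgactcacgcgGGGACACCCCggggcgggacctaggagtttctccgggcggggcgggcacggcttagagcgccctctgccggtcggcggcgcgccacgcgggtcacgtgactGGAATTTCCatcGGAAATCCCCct
Nfkb2: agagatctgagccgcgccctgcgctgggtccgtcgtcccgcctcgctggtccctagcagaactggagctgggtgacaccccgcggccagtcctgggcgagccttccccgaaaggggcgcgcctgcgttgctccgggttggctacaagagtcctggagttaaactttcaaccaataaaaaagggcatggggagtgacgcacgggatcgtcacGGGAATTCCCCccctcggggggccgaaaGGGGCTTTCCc
Zc3h12a: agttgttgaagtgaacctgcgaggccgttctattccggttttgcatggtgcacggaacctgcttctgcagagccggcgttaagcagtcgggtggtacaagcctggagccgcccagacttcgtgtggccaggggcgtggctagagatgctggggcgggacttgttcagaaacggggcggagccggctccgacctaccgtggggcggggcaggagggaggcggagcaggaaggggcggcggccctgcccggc
The motif was searched on both strands as the kB consensus and as a core GGANNTTCC, and 1 site can match both. The Nfkbia window held GGACTTTCC, 178 to 170 bases before the start, and GGAAATTCCC, 29 to 20 bases before it. The printed Tnfaip3 window, 1 of 2 for this gene, held 3 matches, of which GGAATTTCC and GGAAATCCCC lie within 24 bases of the start. In Nfkb2 the run of capitals nearer the middle holds a pair of overlapping matches. Of these, GGGAATTCCC reads the same on both strands, and GGAATTCCCC matches on the opposite strand only. GGGGCTTTCC lies 11 to 2 bases before the start. The printed Zc3h12a window held none, which says only that these letters are not in it. Of the 10 genes, 7 had a window in the table used, with 10 windows in all, since Nfkb2 has 3 and Tnfaip3 has 2. A kB match was found in 6 of the 10 windows, beside 6.66% of 32851 windows of all genes. By gene, 4 of the 7 held a match in any window (Nfkb2, Nfkbia, Nfkbie, Tnfaip3), beside 7.63% of 27025 genes. The other Tnfaip3 window held none of the motifs searched. The E-box CACGTG (in 6.02% of all windows) was found in the printed Tnfaip3 window, and the AP-1 motif TGANTCA (in 6.75%) in that window, the Nfkbie window and 1 of the 3 windows of Nfkb2. The TEAD motif GGAATG (in 12.6%) was found in 1 window of Nfkb2, where it overlaps a kB match. A match is a description of the sequence and not a site shown to be bound, and the motifs were chosen after the sequences were seen.

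Per length of exon, the IkB family genes Nfkbia and Nfkbiz were the most abundant of the 10 and the nuclear Bcl3 the least. Nfkbia stood at a mean of 111 ± 29.4 CPM per kilobase of exon in adult libraries (SD, n = 24) and Nfkbiz at 57.5 ± 13.7. Nfkb1 followed at 28.4 ± 1.79, then Zc3h12a at 18.9 ± 4.78 and Tnfaip3 at 17.8 ± 7.95. Rela (13.8 ± 1.44) came next, and neither it nor Zc3h12a differed from Tnfaip3 beyond the SD of Tnfaip3. Nfkb2 (11.3 ± 2.02) and Relb (8.11 ± 1.49) followed. Nfkbie (2.03 ± 0.679) and Bcl3 (1.43 ± 0.425) were lowest and overlapped within their SDs. In aged libraries the order was the same, from 128 ± 26.5 for Nfkbia to 1.69 ± 0.40 for Bcl3.

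**Figure D1:**
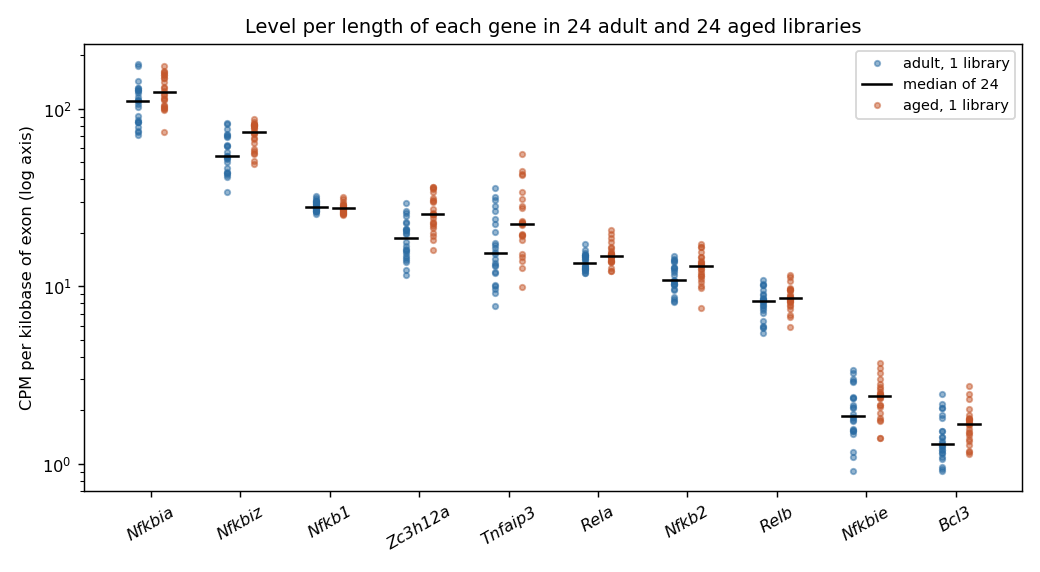
Level of each gene in CPM per kilobase of exon, on a log axis, in 24 adult libraries (blue) and 24 aged libraries (orange); each point is 1 library and each black line the median of 24. Nfkbia and Nfkbiz are the highest of the 10 genes in both ages, Nfkbie and Bcl3 the lowest, and the points of Nfkb1 lie closest together.

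Averaged over the 6 times, 7 of the 10 genes were higher in aged than in adult epidermis and none was lower (edgeR, adjusted p under 0.05). The feedback enzymes rose most, both of 2, followed by 3 of 4 IkB family genes and 2 of 4 subunits. Of all 18044 genes tested, 33.1% were called in this comparison, 17.0% higher and 16.2% lower. The median log2 fold change was 0.52 for the feedback enzymes, 0.26 for the IkB family and 0.13 for the subunits, beside 0.0076 over all genes.

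Among the feedback enzymes, Zc3h12a ran from 31.9 to 80.9 CPM in adult libraries, with a median of 51.8, and from 44.0 to 99.7 CPM in aged libraries, with a median of 70.3. The ranges overlapped, with the whole aged range shifted upwards. The log2 fold change of aged over adult was 0.50 (SE 0.08; adjusted p = 1.18e-05, edgeR). Tnfaip3 ran from 35.7 to 164 CPM in adult (median 70.4) and from 45.4 to 256 CPM in aged libraries (median 104). It was the most variable of the 10 genes, and its log2 fold change was 0.53 (SE 0.16; adjusted p = 0.00795, edgeR).

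In the IkB family the nuclear members were called along with IkB-alpha. Nfkbiz ran from 141 to 345 CPM in adult (median 224) and from 201 to 362 CPM in aged libraries (median 306), which is 0.32 on the log2 scale (SE 0.08; adjusted p = 0.00205, edgeR). Bcl3 ran from 1.68 to 4.58 CPM (median 2.39) and from 2.10 to 5.05 CPM (median 3.10), which is 0.28 on the log2 scale (SE 0.09; adjusted p = 0.0128, edgeR). Nfkbia ran from 113 to 281 CPM (median 176) and from 116 to 276 CPM (median 195). The ranges of Nfkbia were nearly the same in both ages, and its call (0.21 on the log2 scale, SE 0.08; adjusted p = 0.0421, edgeR) was lost when any 1 of 25 of the 48 libraries was left out. Nfkbie had an estimate of 0.24 (SE 0.11) and was not called (adjusted p = 0.072, edgeR).

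Of the subunits, Nfkb2 ran from 34.6 to 62.6 CPM in adult (median 45.7) and from 31.7 to 73.1 CPM in aged libraries (median 55.0). Its log2 fold change was 0.19 (SE 0.07; adjusted p = 0.0323, edgeR). Rela, the main transactivating subunit of the canonical pathway, ran from 32.3 to 47.1 CPM (median 37.0) and from 33.1 to 56.3 CPM (median 40.3), which is 0.15 on the log2 scale (SE 0.05; adjusted p = 0.0121, edgeR). Relb was not called, at 0.10 (SE 0.06; adjusted p = 0.18, edgeR). Nor was Nfkb1, the 1 gene with a negative estimate, at -0.04 (SE 0.02; adjusted p = 0.0672, edgeR). Nfkb1 was also the steadiest of the 10, since all 48 libraries lay between 104 and 133 CPM.

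The count depended on ZT20. Without the 8 libraries of ZT20, 3 of the 10 genes were called over the remaining 5 times: Zc3h12a and Nfkbiz higher (log2 fold changes 0.36 and 0.29, adjusted p = 0.00633 and 0.0126, edgeR) and Nfkb1 lower (-0.08, adjusted p = 0.0142). Over all genes the count went from 5976 to 3461.

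**Figure D2:**
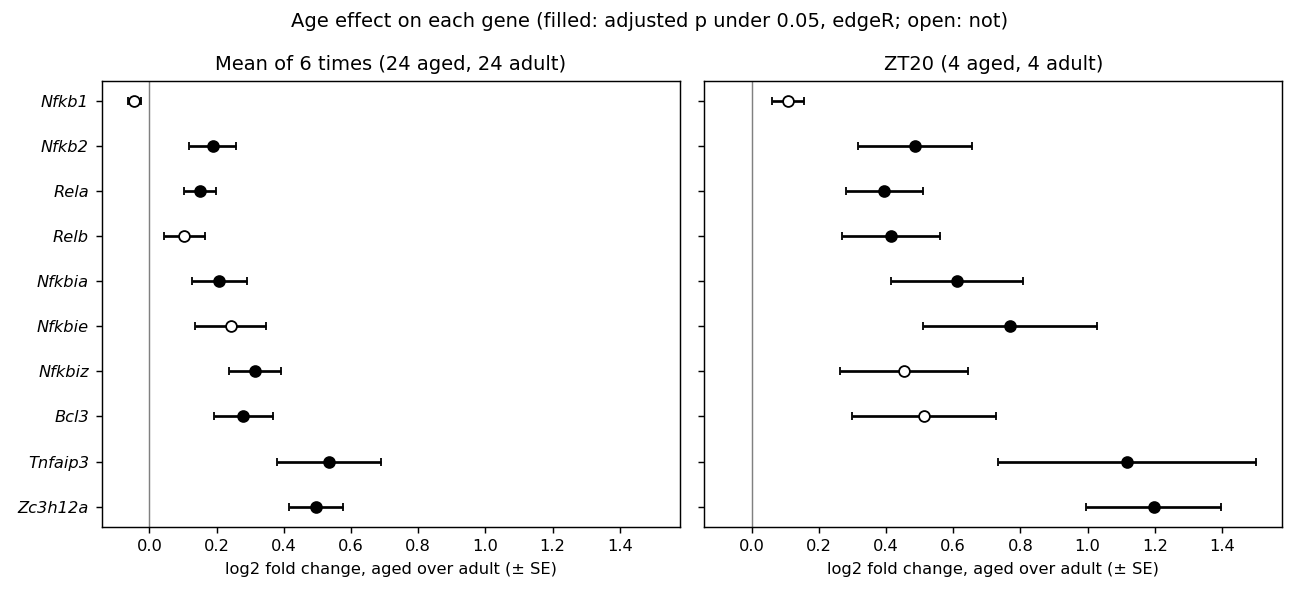
Log2 fold change of aged over adult for each gene with its standard error, as the mean of the 6 times (left) and at ZT20 (right); filled points have an adjusted p under 0.05 in edgeR, open points do not. The ZT20 estimates lie to the right of the means over all times for all 10 genes, and Zc3h12a and Tnfaip3 are farthest from 0 in both panels.

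At ZT20, 7 of the 10 genes were called and all 7 were higher in aged epidermis. This compares with 20.0% of all genes called at that time, 9.54% higher and 10.5% lower. Both feedback enzymes, 2 of 4 IkB family genes and 3 of 4 subunits were among the 7.

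Zc3h12a stood at 34.0, 31.9, 49.2 and 38.6 CPM in the 4 adult libraries and at 87.1, 82.4, 98.8 and 83.8 CPM in the 4 aged ones. Every aged library lay above every adult one, and the log2 difference was 1.20 (SE 0.20; adjusted p = 1.19e-04, edgeR). Tnfaip3 stood at 54.6, 47.0, 92.9 and 103 CPM in adult and at 102, 88.6, 256 and 199 CPM in aged libraries. Here the groups overlapped, since aged replicates 1 and 2 reached no higher than the upper adult libraries, and the log2 fold change was 1.12 (SE 0.38; adjusted p = 0.0359, edgeR).

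Nfkbia stood at 113, 134, 176 and 195 CPM in adult and at 224, 208, 276 and 236 CPM in aged libraries. The groups did not overlap, and the log2 fold change was 0.61 (SE 0.20; adjusted p = 0.026, edgeR). Nfkbie stood at 3.70, 2.66, 5.004 and 5.20 CPM in adult and at 6.61, 5.25, 7.35 and 9.03 CPM in aged libraries, again without overlap but with 1 aged library just above the highest adult one. Its log2 fold change was 0.77 (SE 0.26; adjusted p = 0.0319, edgeR). Nfkbiz (0.45, adjusted p = 0.0845) and Bcl3 (0.51, adjusted p = 0.082) were not called.

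Rela stood at 33.9, 32.5, 34.2 and 35.4 CPM in adult and at 39.9, 40.2, 53.5 and 45.1 CPM in aged libraries. The adult libraries were close together and all below the aged ones, and the log2 fold change was 0.40 (SE 0.11; adjusted p = 0.0144, edgeR). Nfkb2 stood at 45.4, 36.7, 43.7 and 48.7 CPM in adult and at 53.1, 50.9, 70.1 and 70.4 CPM in aged libraries, without overlap (0.49, SE 0.17; adjusted p = 0.0373). Relb, at 17.1, 13.1, 14.1 and 16.7 CPM in adult and 18.4, 17.0, 21.0 and 24.9 CPM in aged libraries, was called as well (0.42, SE 0.15; adjusted p = 0.0411). Nfkb1 was not (0.11, adjusted p = 0.0901).

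In all, 5 of the 10 genes had every aged library above every adult one at ZT20 (Zc3h12a, Nfkbia, Nfkbie, Rela, Nfkb2), beside 12.3% of all genes. The ZT20 calls depended on single libraries. Their count fell from 7 to 1 without aged replicate 3, to 2 without adult replicate 2, and to 3 without adult replicate 1 or without aged replicate 4. The count over all genes moved as well, from 3616 with all libraries to between 1769 and 3955 with 1 library left out. Without aged replicates 1 and 2 together, a setting chosen with results known, 4 genes were called. Zc3h12a was called in each of these fits, with adjusted p between 3.98e-05 and 0.00126 over the 48 fits that leave out 1 library.

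At the other 5 times none of the 10 genes was called by edgeR, at 4.46% of all genes called at ZT0, 0.632% at ZT4, 2.19% at ZT8, 1.10% at ZT12 and 1.97% at ZT16. At an unadjusted p under 0.05 there were 1 gene at ZT0, 2 at ZT4, 4 at ZT8, 2 at ZT12 and 2 at ZT16. No share of all genes at the unadjusted threshold is given, so these counts are a description only. DESeq2 called 1 gene at ZT16 and none at the other 4 times, and limma called none. The share of all genes called by these 2 methods is not given. The estimates for Zc3h12a were 0.30 at ZT4, 0.44 at ZT8, 0.64 at ZT12 and 0.54 at ZT16, with an SE of 0.20 at each. At ZT0, 9 of the 10 estimates were negative, from -0.03 for Nfkb2 to -0.42 for Bcl3, and Nfkbiz stood at 0.22. At ZT8 Nfkbiz stood at 208, 217, 224 and 224 CPM in adult and at 304, 229.9, 337 and 339 CPM in aged libraries. All aged libraries lay above all adult ones, as for 5.54% of all genes, and the estimate of 0.47 (SE 0.19) was not called (adjusted p = 0.169, edgeR).

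Whether the age effect differed between the times was tested jointly, and none of the 10 genes passed (edgeR), at 0.283% of all genes. The lowest adjusted p was 0.0973, for Zc3h12a. At an unadjusted p under 0.05, for which no share of all genes is given, there were 4 genes (Zc3h12a, Nfkb1, Bcl3 and Relb). DESeq2 called 2, and limma none, and the share of all genes called by either method is not given. The ZT20 effect is thus not shown to differ from the other times, although it was past the threshold and they were not.

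**Figure D3:**
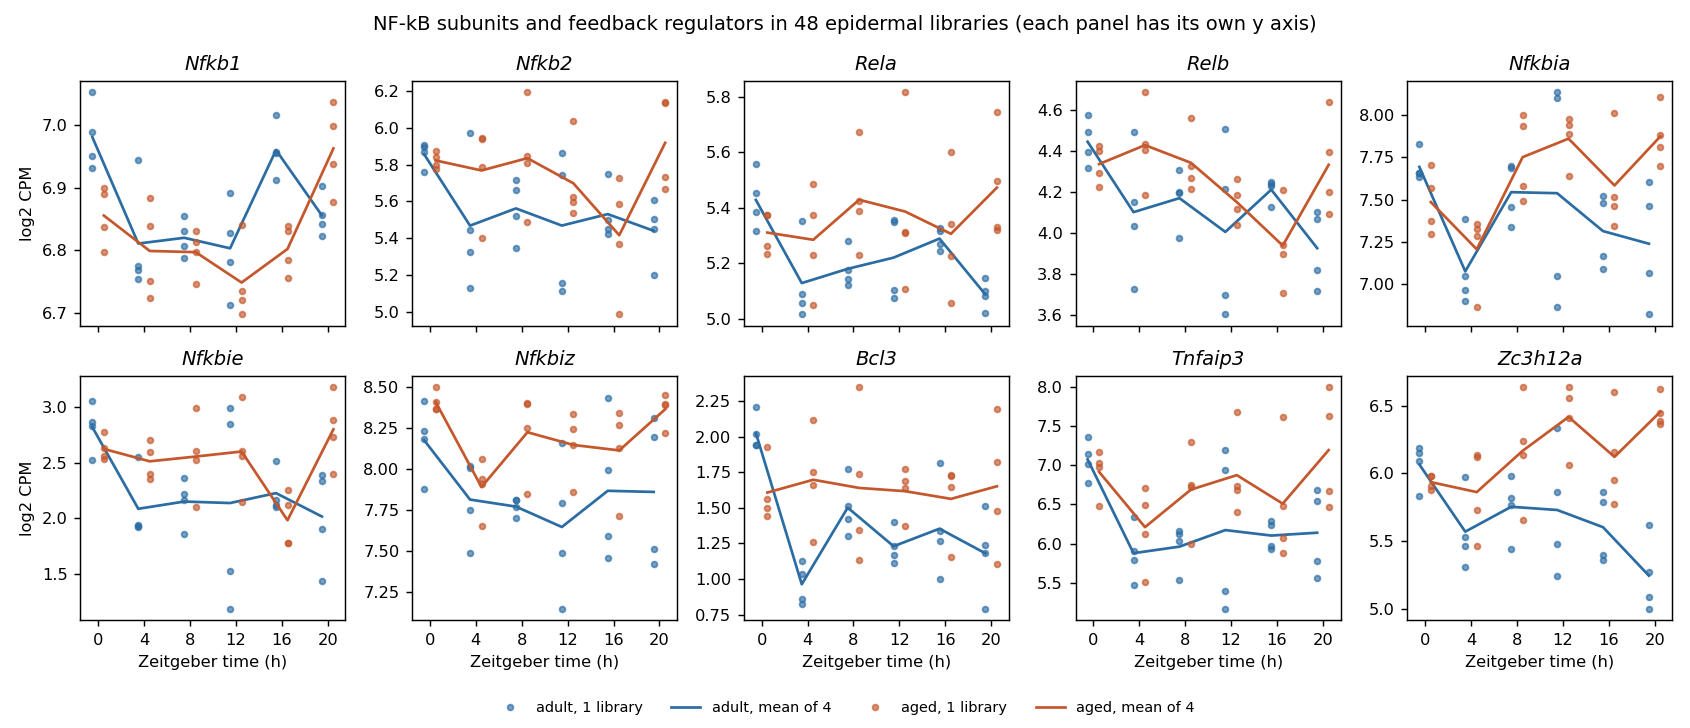
Log2 CPM of each gene (y axis, its own scale per panel) against Zeitgeber time (x axis, hours) in adult (blue) and aged (orange) libraries; points are single libraries and lines join the means of 4. The adult line of all 10 genes is highest at ZT0, and the aged line of 7 genes is highest at ZT20.

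Across the day, adult levels of all 10 genes had their highest mean at ZT0, which was the highest time for 23.2% of all genes. In aged epidermis 7 of the 10 had their highest mean at ZT20 (20.8% of all genes), whereas Relb and Bcl3 were highest at ZT4 (16.3% of all genes) and Nfkbiz at ZT0 (16.1%). Levels differed between times in adult libraries for 2 of the 10 genes, Bcl3 (adjusted p = 0.00437) and Nfkb1 (adjusted p = 0.00711, edgeR), at 16.8% of all genes. In aged libraries they did so for Nfkb1 alone (adjusted p = 0.0199, edgeR), at 8.44% of all genes. That call was lost without aged ZT20 replicate 2 or replicate 3. Without adult ZT12 replicate 3 or replicate 4, 5 and 4 genes were called in adult libraries.

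Bcl3 had the widest adult course in this pair. It stood at 4.58, 3.80, 3.79 and 4.00 CPM at ZT0 and at 2.14, 1.73, 1.77 and 2.01 CPM at ZT4, so that the lowest ZT0 library lay above the highest ZT4 library. The other adult times lay between, from 2.26 ± 0.465 CPM at ZT20 through 2.31 ± 0.210 at ZT12 and 2.57 ± 0.642 at ZT16 to 2.81 ± 0.405 at ZT8 (SD, n = 4), and neighbours in that order did not differ beyond their spread. In aged libraries the Bcl3 means ran from 2.95 ± 0.519 CPM at ZT16 to 3.27 ± 0.805 at ZT4. The adult and aged libraries did not overlap at 2 times, in opposite directions. At ZT0 the aged libraries (2.68, 2.78, 2.90 and 3.77 CPM) lay below the adult ones, and at ZT4 (3.32, 3.12, 4.31 and 2.35 CPM) above them. The estimates were -0.42 (SE 0.21; adjusted p = 0.26) at ZT0 and 0.78 (SE 0.22; adjusted p = 0.0977, edgeR) at ZT4, and neither was called. Aged libraries lay below adult ones without overlap for 8.92% of all genes at ZT0, and above them for 2.67% at ZT4.

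Nfkb1, the precursor of a DNA-binding subunit, moved little. In adult libraries ZT0 (126 ± 4.74 CPM) and ZT16 (125 ± 3.69) were high, ZT20 lay between at 116 ± 2.76, and ZT12 (112 ± 5.88), ZT4 (112 ± 7.21) and ZT8 (113 ± 2.30) did not differ beyond their spread. In aged libraries ZT20 was highest at 125 ± 6.02 CPM, ahead of ZT0 at 116 ± 3.84, and the other times lay between 108 ± 4.84 at ZT12 and 112 ± 3.04 at ZT16. At ZT16 the adult libraries stood at 120, 124, 129 and 124 CPM and the aged ones at 114, 110, 108 and 114 CPM, all aged below all adult, as for 4.53% of all genes. This estimate of -0.16 (SE 0.05) was not called (adjusted p = 0.0588, edgeR). At ZT0 the aged libraries (111 to 119 CPM) also lay below the adult ones (122 to 133 CPM), and that estimate of -0.13 (SE 0.05) was not called either (adjusted p = 0.107, edgeR).

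A 24 h wave was not called for any of the 10 genes in adult (14.6% of all genes called) or aged libraries (5.87% of all genes called; edgeR). Nfkb1 came nearest, with an adjusted p of 0.0889 in adult and 0.0587 in aged libraries and fitted amplitudes of 0.07 and 0.08 (log2, mean to peak). At an unadjusted p under 0.05 there were 1 gene in adult and 2 in aged libraries. DESeq2 called 1 in each, and limma none. The difference of the waves between ages was called for no gene by edgeR, and for none of the 10 by DESeq2 or limma. One of the 10, Zc3h12a, had an unadjusted p under 0.05. For these waves too, no share of all genes is given at the unadjusted threshold, or for DESeq2 and limma.

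Among libraries of the same age and time, 8 of the 10 genes varied more than the median gene. The SD of log2 CPM within groups was 0.56 for Tnfaip3 and 0.38 for Nfkbie. It was between 0.25 and 0.30 for Nfkb2, Nfkbiz, Zc3h12a, Nfkbia and Bcl3. Relb (0.21) stood just above the median of all genes, 0.20, and Rela (0.16) and Nfkb1 (0.06) below it. Against genes within 0.5 of their own mean log2 CPM the median was 0.12 for Tnfaip3, 0.22 for Nfkbie, 0.12 for Rela and 0.13 for Nfkb1.

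The adult ZT12 group shows this spread at its widest. For Tnfaip3, Nfkbie and Nfkbia it had the largest SD of log2 CPM of the 12 groups, at 1.04, 0.92 and 0.68. Nfkbia stood at 281, 274, 116 and 132 CPM, Tnfaip3 at 147, 123, 35.7 and 42.0 CPM, and Nfkbie at 7.94, 7.15, 2.23 and 2.84 CPM. Replicates 1 and 2 were high and replicates 3 and 4 low for all 3 genes. In the same libraries the mean log2 CPM of 18 immediate early genes (such as Fos, Egr1 and Atf3, which cells switch on within minutes of a stimulus) was 8.49, 8.00, 6.83 and 7.48. That of the 12 Langerhans cell markers was 4.34, 4.20, 1.29 and 2.23.

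Most of the 10 genes varied together among libraries of the same group. After each library's group mean was removed, 37 of 45 pairs were correlated (48 libraries, adjusted p under 0.05, permutation of libraries within groups). Among the 36 pairs without Nfkb1, Pearson's r ran from 0.27 to 0.83 with a median of 0.63, and Spearman's rho from 0.33 to 0.87. Tnfaip3 and Nfkbia had an r of 0.83 and a rho of 0.80, and Rela and Tnfaip3 an r of 0.83 and a rho of 0.87. Nfkb2 went with Relb, its partner in the alternative pathway, at an r of 0.83 and a rho of 0.82. Each of these had a raw p of 1e-05, the smallest that 100000 permutations can give, and an adjusted p of 4.1e-05 by r. The r of Tnfaip3 and Nfkbia was 0.79 without the 2 libraries farthest from the median of Nfkbia, that of Rela and Tnfaip3 0.80 and that of Nfkb2 and Relb 0.81. With Nfkb1 the r ran from 0.12 to 0.52, and 2 of its 9 pairs passed. Over all 18043 other genes the median r was 0.0109 with Tnfaip3, and 14.6% of them had an r over 0.5. Among the 10 genes that share ran from 0.920% for Nfkb1 to 16.7% for Zc3h12a. No share of all gene pairs at the permutation threshold is given, so the count of correlated pairs is a description only. The pairs share libraries, their depth and their scaling.

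**Figure D4:**
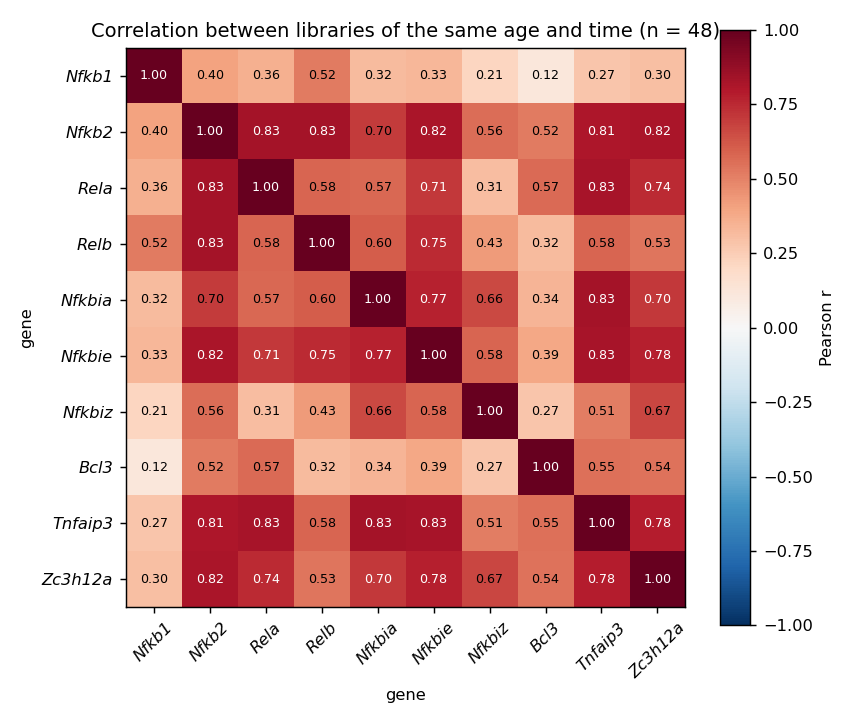
Pearson's r of each pair of the 10 genes over 48 libraries, after the mean of each group of age and time was removed from log2 CPM; red is positive and blue negative. Values over 0.8 lie among Tnfaip3, Nfkbia, Nfkbie, Nfkb2, Rela, Relb and Zc3h12a, and the row of Nfkb1 is the palest.

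The same within-group variation went with the immediate early genes and with markers of several cell types. Pearson's r with the mean of the 18 immediate early genes was 0.90 for Zc3h12a (rho 0.87), 0.89 for Tnfaip3 (rho 0.90), 0.85 for Nfkbie, 0.83 for Nfkbia and 0.81 for Nfkb2. It was 0.26 for Nfkb1. With the 12 Langerhans cell markers r was 0.89 for Nfkbie (rho 0.89), 0.83 for Tnfaip3 (rho 0.84) and 0.77 for Zc3h12a (rho 0.76). With the 9 T cell markers r was 0.76 for Zc3h12a (rho 0.77), 0.73 for Rela and 0.72 for Tnfaip3, and with the 7 basal keratinocyte markers 0.75 for Nfkbie and 0.73 for Relb. Zc3h12a went against the 8 markers of differentiated keratinocytes, at an r of -0.77 (rho -0.79). For each of these relations except that of Nfkb1 the adjusted p was at most 0.0012 by Pearson's r or Spearman's rho (within-group permutation, adjusted over 90 relations), and r without the 2 farthest libraries lay between 0.66 and 0.87 in size. They are a selection. Bcl3 had an r of 0.63 with the melanocyte, 0.62 with the macrophage and neutrophil and 0.60 with the fibroblast markers. In the same order r was 0.59, 0.56 and 0.37 for Zc3h12a and -0.06, -0.19 and -0.14 for Nfkb1. By the same permutation test the adjusted p of r was at most 0.00031 for Bcl3, at most 0.048 for Zc3h12a and at least 0.28 for Nfkb1. Many markers in these lists were low. Their median CPM ran from 0.0623 (C1qb) to 4.52 (Cd68) in the macrophage and neutrophil list, except Cxcr2 at 94.4. It ran from 0.173 (Lum) to 3.68 (Col1a2) in the fibroblast list and from 0.212 (Mlana) to 20.8 (Tyr) in the melanocyte list.

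**Figure D5:**
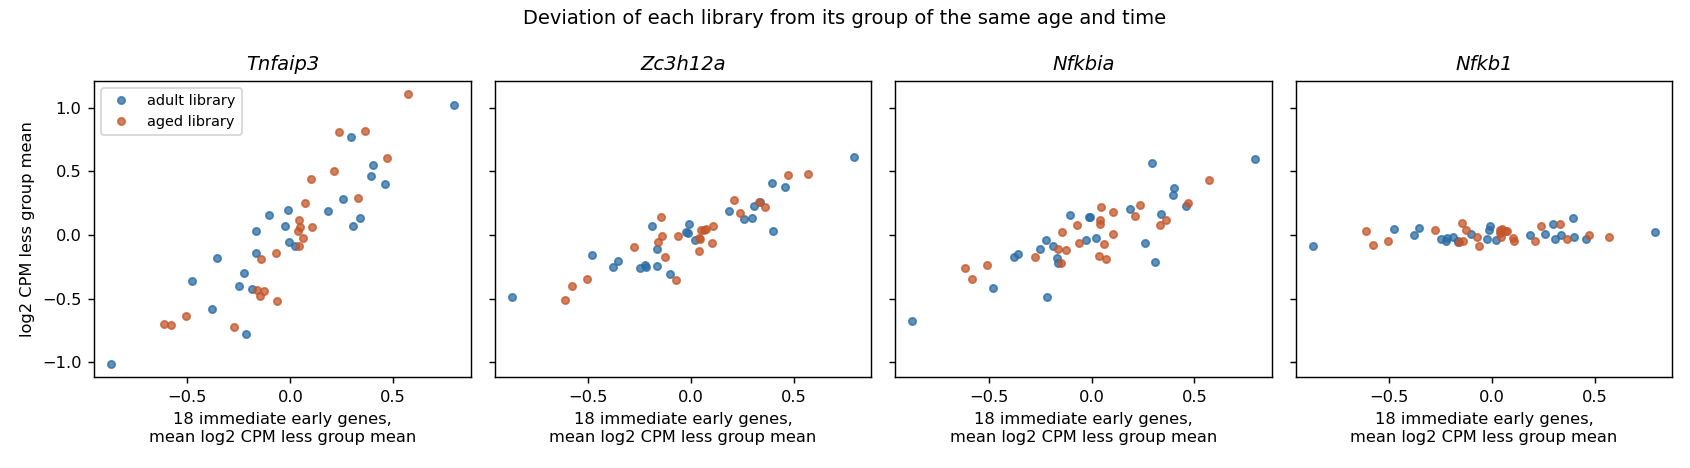
Deviation of each library's log2 CPM from the mean of its group (y axis) for Tnfaip3, Zc3h12a, Nfkbia and Nfkb1, against the deviation of the mean log2 CPM of 18 immediate early genes (x axis); each point is 1 adult (blue) or aged (orange) library. Tnfaip3, Zc3h12a and Nfkbia rise with the immediate early genes, at an r of 0.89, 0.90 and 0.83, and Nfkb1 lies near 0 throughout, at an r of 0.26.

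The immediate early genes also moved with age. Of the 18, 13 were higher and 1 lower in aged libraries over all times (edgeR), with a median log2 fold change of 0.28, and 11 were higher at ZT20, with a median of 0.74. Their summed level ran from 3540 to 13274 CPM in adult and from 5666 to 14490.1 CPM in aged libraries. Egr3 rose by a log2 fold change of 0.60, Fosb by 0.63, Fosl1 by 1.45 and Ier2 by 0.41 over all times. The list mean was highest at ZT0 in adult (8.44 ± 0.20, SD, n = 4) and at ZT20 in aged libraries (8.53 ± 0.22), where the adult mean was 7.66 ± 0.50. Levels differed between times for 4 of the 18 in adult and 1 in aged libraries (edgeR), beside 16.8% and 8.44% of all genes. The Langerhans list mean stood at 2.95 ± 0.67 in adult and 3.84 ± 0.66 in aged libraries at ZT20. At ZT0 and ZT16 the aged mean was the lower one (3.25 ± 0.26 against 4.04 ± 0.59, and 2.34 ± 0.65 against 3.57 ± 0.46). Of its 12 markers, 1 was higher at ZT20, and over all times 1 was higher and 1 lower. Of 8 markers of differentiated keratinocytes, 5 were lower at ZT20, and over all times 4 were lower and 1 higher. Beside these age counts, 17.0% of all genes were higher and 16.2% lower over all times, and 9.54% higher and 10.5% lower at ZT20.

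With the immediate early mean as a covariate in the fit, 2 of the 10 genes were called over all times (26.6% of all genes) and 1 at ZT20 (7.70% of all genes). Zc3h12a was called in both, with a log2 fold change of 0.20 over all times (adjusted p = 7.82e-04) and 0.61 at ZT20 (adjusted p = 1.72e-04, edgeR). Nfkb1 was called lower over all times (-0.06, adjusted p = 0.038). The estimate of Tnfaip3 went from 0.53 to -0.07 over all times and from 1.12 to -0.06 at ZT20, and that of Nfkbia from 0.21 to -0.06 over all times. At ZT16, 4 of the 10 were called in this fit, all lower, beside 9.53% of all genes called lower. With the Langerhans mean as the covariate 9 of the 10 were called over all times, 8 higher and Nfkb1 lower, beside 40.0% of all genes called and 20.7% called higher. At ZT20 it was 2 (Zc3h12a, 0.94, and Rela, 0.24), beside 16.1% of all genes. At ZT4 it was 2, at ZT12 1 and at ZT16 3, beside 1.47%, 1.49% and 7.18%. These fits remove what a gene shares with the list. Which of them moves the other was not tested.

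Upstream of the 10 genes, changes with age were mixed. Among receptors and ligands of the pathway, 5 of 20 tested were higher and 2 lower over all times (edgeR), with a median log2 fold change of 0.07. The Toll-like receptors Tlr6 and Tlr4 rose by 2.13 (SE 0.18; adjusted p = 3.48e-12) and 0.95 (SE 0.12; adjusted p = 2.32e-07). Il1rap, the co-receptor for interleukin-1, rose by 0.26, and Tnfrsf12a, the receptor of TWEAK, by 0.53. Of 17 genes listed as adaptors, which include the kinase Irak1 and the ubiquitin ligase Birc2, 6 were higher and 2 lower (median 0.06). Bcl10 rose by 0.26, Irak1 by 0.07 and Birc2 by 0.10, while Tradd, the adaptor of the TNF receptor, fell by 0.12. Of 8 genes of the pathway's other kinases and their partner proteins none was higher and 1 was lower. This was Tab2, an adaptor of the kinase TAK1, which fell by 0.13. Of Rel, Nfkbib and Nfkbid, the other 3 genes of the subunit and IkB families, none was called over all times (edgeR); 1 of them, Nfkbib, had an unadjusted p under 0.05.

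Of 18 other feedback regulators, 4 were higher and 2 lower over all times (median 0.04). Zc3h12b, a relative of Zc3h12a, rose by 0.85 (SE 0.10; adjusted p = 1.99e-08, edgeR) and the deubiquitinase Cyld by 0.10. Tnip1, which binds the Tnfaip3 protein, fell by 0.15, and the ubiquitin ligase Itch by 0.08. Of 24 transcriptional targets tested, 4 were higher and 3 lower (median 0.04). The chemokine Ccl20 rose by 0.67 and the cyclooxygenase Ptgs2 by 0.78, whereas the chemokine Ccl2 fell by 0.78 and the survival gene Bcl2l1 by 0.18. At ZT20 4 of 20 receptors and ligands, 4 of 17 adaptors and 3 of 24 targets were higher and 1 target was lower. Of the 18 other feedback regulators 1 was higher and 1 lower. Against the 17.0% higher and 16.2% lower of all genes over all times, and 9.54% and 10.5% at ZT20, these lists are described by their counts only.

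Over the 48 libraries, group differences included, the genes most like the feedback genes were searched among 12882 expressed genes. Tnfaip3 was most like Ccrl2, a receptor-like binder of chemerin, Crem, a regulator of cyclic AMP response, and Dusp5, a MAP kinase phosphatase (each r = 0.93). Zc3h12a was most like Csrnp1 (r = 0.91), the kinase Sik1 (r = 0.90) and the immediate early receptor Nr4a1 (r = 0.90). Nfkbia was most like the polyamine enzyme Sat1 (r = 0.87), the transcriptional repressor Bhlhe40 (r = 0.86) and Csrnp1 (r = 0.84). Rela was most like Vps37b (r = 0.91), Rnf34 (r = 0.90) and Dusp5 (r = 0.90). These are descriptions over libraries that share their depth and scaling.

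In the genome (GRCm38) the 10 genes lie on 8 chromosomes. Nfkb2 (chromosome 19, 46300994 to 46312400) and Rela (5637442 to 5648134) share chromosome 19, and Relb (chromosome 7, 19606217 to 19629438) and Bcl3 (19808462 to 19822824) lie close to each other on chromosome 7. Zc3h12a lies on chromosome 4 from 125118414 to 125127881, Tnfaip3 on chromosome 10 from 19000910 to 19015410 and Nfkbia on chromosome 12 from 55489409 to 55492647. The span of Nfkb2 overlaps those of Psd and 4833438C02Rik. The kit marks strand, but the strand setting of the counting is not given in the sources used here, so reads from these overlaps may have been counted for either gene.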

How the data were processed

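The deposited matrix holds raw counts, whole numbers that the authors assigned to 24996 Entrez identifiers in each of 48 epidermal libraries. Reads were handled with Trim Galore, STAR 2.7.10a and featureCounts on mm10 (GRCm38), per the submitters' processing notes. Which annotation and strand setting were used is not given in the sources used here. The kit kept strand and removed ribosomal RNA, per the labels' protocols. RefSeq on GRCm38 gave symbols and coordinates for 23476 identifiers; the rest held 3.66% of counts and stayed in the library sizes. Exon lengths are unions over a gene's GENCODE exons.

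Tests used edgeR 4.0.16 (R 4.3.3). Its filter on low counts (minimum count 10, minimum total 15) kept 18044 genes. Scaling was by TMM, and robust quasi-likelihood models had either 1 mean per group (36 residual degrees of freedom) or a 24 h cosine for each age (42). The typical biological coefficient of variation was 18%. Per-gene p-values come from the two-sided quasi-likelihood F test, with Benjamini-Hochberg adjustment across all 18044 genes, and calls required an adjusted p under 0.05. Log2 CPM used a prior count of 2. The fits were tested on simulated counts.

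Named were the 10 genes, up to 4 called genes with the smallest p from each pathway list, and the 3 genes most correlated with each of Nfkbia, Tnfaip3, Zc3h12a and Rela among those with a mean log2 CPM of at least 0. That search left out the 10 genes, identifiers without a symbol, and symbols starting with Gm or ending in Rik. The members and lists were chosen with earlier results of these data known. Zfp36 is both in the immediate early list and among the other feedback regulators, and Nfkbid and Birc3 are each in 2 pathway lists. Alternatives were DESeq2 1.42.0, its size factors within edgeR, limma 3.58.1 on log2 CPM, no filter, a filter of 1 CPM in at least 24 libraries, a threshold of 0.01, a replicate block, and fits without ZT20 or without each library. Fits without a pair of aged ZT20 libraries and with list means as covariates were added with results known. All columns of the matrix were mapped to samples.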

Additional observations from a re-analysis of the deposited data

Results flagged for a closer look

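Dixon's test compared the highest and the lowest library of each gene and group of 4 with the rest, and 6 of 120 groups held a library farther from the others than Dixon's 95% critical value allows. Chance flags about 1 in 20 groups, which is 6 of 120. Nfkb1 stood at 123.1 CPM in adult ZT4 replicate 1, against 108 to 109 CPM in the other 3 libraries. Nfkbie in the same library stood at 5.81 CPM, against 3.74 to 3.80. Nfkbia stood at 227.7 CPM in adult ZT0 replicate 4, against 198 to 201, and at 116.3 CPM in aged ZT4 replicate 4, against 156 to 163. Nfkbie stood at 5.68 CPM in adult ZT16 replicate 4, against 4.26 to 4.45, and Bcl3 at 2.18 CPM in aged ZT16 replicate 1, against 3.08 to 3.27. With each of these libraries left out in turn, 7 or 8 of the 10 genes were called over all times, against 7 with all libraries (edgeR).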

How the results depend on the processing

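Counts are of the 10 genes called. Where no count over all genes is printed beside an alternative, its share of all genes is not given here. Over all times, 7 were called, and 6 to 8 under DESeq2, its size factors within edgeR, limma, no filter, the stricter filter and the replicate block. The count was 3 without ZT20, 3 at a threshold of 0.01 and 2 with the immediate early covariate. At ZT20 it went from 7 to 4 with no filter, 4 without aged replicates 1 and 2, 2 with the Langerhans covariate, 1 with the immediate early covariate and 1 at the threshold of 0.01. Over all genes, 3616 were called at ZT20, 463 without that pair of libraries, 1390 with the immediate early covariate and 1339 at 0.01; over all times 5976 were called and 3483 at 0.01. The cause of these drops was not tested, beyond the smaller number of libraries or the stricter threshold itself. At times where edgeR called none, the Langerhans covariate gave 2 at ZT4, 1 at ZT12 and 3 at ZT16, the immediate early covariate gave 4 at ZT16, and DESeq2 gave 1 at ZT16. For age by time DESeq2 called 2. The effect of time in aged libraries, called for 1 gene, was called for 2 by DESeq2 and for 0 with no filter, without ZT20, without aged ZT20 replicates 1 and 2, and at 0.01. A 24 h wave was called for 1 adult gene by DESeq2 and without ZT20, and for 1 aged gene by DESeq2, with its size factors, with the stricter filter and with a 12 h wave added. Correlated pairs numbered 37, 38 without ZT20 and 36 without the 2 farthest libraries.

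When each library was left out in turn, the count ran from 5 to 8 over all times, from 1 to 7 at ZT20, from 0 to 2 at ZT12, from 0 to 1 at ZT16 and from 0 to 1 for age by time. It ran from 2 to 5 for time in adult, from 0 to 1 for time in aged, and from 0 to 1 for the aged wave. Over all genes the count ran from 5458 to 6699 over all times and from 1769 to 3955 at ZT20. With the immediate early covariate 6 estimates over all times changed sign: Nfkb2 to -0.0471, Rela to -0.0008, Relb to -0.0336, Nfkbia to -0.0564, Nfkbie to -0.1022 and Tnfaip3 to -0.0667. At ZT20 Tnfaip3 did so, to -0.0621. None of these 7 was called (adjusted p from 0.287 to 0.991, edgeR).

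Same-numbered adult and aged libraries were not shown to pair, and pairing within a time is not excluded. The correlation of their deviations ran from -0.468 to 0.541, over 0.1 in 13 of 24 pairs, and 16 of 48 libraries were most like one of their own number. The replicate block fits the same replicate effect at all times, so it cannot show pairing within a time. With the replicate block 6 genes were called over all times and 7 at ZT20, and Nfkbia lost its call (adjusted p = 0.0516, edgeR). It changed no other call of the 10 genes over all times or at ZT20. Depth limits Bcl3 most, with 74 counts in its lowest library.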
